A study of Homo sapiens with 66 samples.

Results

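Nucleotide excision repair removes bulky, helix-distorting lesions from DNA, and 10 of its genes were followed here through etoposide treatment of AML cell lines. The genes were taken by symbol: XPA, XPC, DDB1, DDB2, ERCC1, ERCC2, ERCC3, ERCC4, ERCC5 and ERCC6, which are 10 of the 57992 gene identifiers analysed. All 10 were found under 1 identifier each and had enough reads to be tested in every cell line. RNA was sequenced from 11 AML cell lines, F36P, HL60, KASUMI1, MOLM13, MONOMAC6, MV411, NB4, NOMO1, OCIAML2, OCIAML3 and THP1, which are established lines. Each was either left untreated, which meant culture medium alone, or given etoposide for 24 hours at the IC50 of that cell line, so the concentration differed between lines. There were 3 libraries per line and condition, 66 in all, and the cells of 3 wells were pooled for each before RNA was isolated. The methods describe the experiments in general as biological replicates, while the labels do not say how the libraries of a group were kept apart, so the p-values measure the spread between these libraries. Etoposide traps topoisomerase II on cut DNA and so leaves strand breaks.

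In the repair pathway, XPC and the DDB1-DDB2 complex find the lesion in the genome at large, whereas ERCC6, also called CSB, acts where RNA polymerase has stalled on it. The TFIIH helicases ERCC2 and ERCC3 then open the helix, XPA takes part in checking the damage, and the nucleases ERCC4-ERCC1 and ERCC5 cut on either side so that the strand can be filled in. DDB2 and XPC are known as target genes of p53, the transcription factor that responds to DNA damage, and the question was whether they moved apart from the other members.

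The libraries held between 17997404 and 24101670 reads on genes, with a median of 20241014. Among markers of the myeloid lineage, CD33 and the transcription factor SPI1 were read in all 11 untreated lines, at no less than 66.5 and 107 CPM, the reads on a gene relative to all reads of its library. F36P stood apart by the erythroid factor GATA1, with 253 CPM against at most 14.3 CPM in the other lines. The myeloid enzyme MPO ran from 0.98 CPM in F36P to 27170 CPM in KASUMI1. It was also low in OCIAML3 (2.99 CPM), MV411 (9.4 CPM) and THP1 (9.96 CPM). The T cell gene CD3D was read at 156 CPM in NOMO1, where the 5 T cell markers summed to 187 CPM. Over all libraries CD3D held 25085 reads and TRAC 16446, but CD3E, CD3G and CD2 held 813, 1138 and 272. The 5 monocytic markers summed to between 5.87 CPM in HL60 and 5114 CPM in OCIAML2. The part of these lineage differences in the results was not tested. The study discarded the treated OCIAML2 libraries for the quality of their reads, and in that line 3 of 13604 genes (0.0221%) passed the test for a difference with etoposide, so OCIAML2 is shown apart and counts are over the other 10 lines. A gene is said to have passed where the adjusted p of edgeR's quasi-likelihood test was under 0.05, and to have been called where the fold change was also above 2. Groups of 3 libraries are also described as overlapping or apart. The share of all genes whose groups lay apart was not counted, so this only describes the values. In bulk RNA, fewer cells that express a gene and less of its RNA per cell cannot be told apart.

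Promoter sequence from RefSeq (GRCh38.p14) is shown for the 3 members that rose the most. Windows from 250 bases before to 50 bases after a start site were matched for all 10 members, as 14 windows. The p53 response element, a pair of 10-base half-sites separated by up to 13 bases and searched on both strands, was found in 1 of the 14, the window of the DDB2 start that lies further downstream. It was found in 0.0285% of all 35116 windows, and a lone half-site in 6.63%. The element lies at chr11:47214979-47214999, plus strand, between 6 and 26 bases into the transcript, in the untranslated part of exon 1 of the canonical DDB2 transcript. The capitals mark the half-sites.
DDB2 element: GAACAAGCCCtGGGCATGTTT
The sequences upstream of a start of DDB2 (chr11:47214204-47214453, plus strand, 250 bases), XPC (chr3:14178622-14178851, minus strand, 230 bases) and ERCC6 (chr10:49539539-49539788, minus strand, 250 bases) follow, ending before the annotated gene. The capitals mark CCAAT boxes (CCAAT or its reverse complement ATTGG, in 32% of all windows) and GC boxes (GGGCGG or CCGCCC, in 42.6%), counted in the 250 bases before the start.
DDB2 upstream: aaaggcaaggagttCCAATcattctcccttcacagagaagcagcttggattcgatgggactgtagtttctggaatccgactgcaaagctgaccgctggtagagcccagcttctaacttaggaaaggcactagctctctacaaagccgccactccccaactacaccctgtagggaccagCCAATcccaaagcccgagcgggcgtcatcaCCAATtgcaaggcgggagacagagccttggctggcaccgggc
XPC upstream: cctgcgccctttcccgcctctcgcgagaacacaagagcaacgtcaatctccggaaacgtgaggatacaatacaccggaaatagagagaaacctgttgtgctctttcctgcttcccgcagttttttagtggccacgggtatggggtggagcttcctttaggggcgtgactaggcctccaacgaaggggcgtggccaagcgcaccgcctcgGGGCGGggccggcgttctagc
ERCC6 upstream: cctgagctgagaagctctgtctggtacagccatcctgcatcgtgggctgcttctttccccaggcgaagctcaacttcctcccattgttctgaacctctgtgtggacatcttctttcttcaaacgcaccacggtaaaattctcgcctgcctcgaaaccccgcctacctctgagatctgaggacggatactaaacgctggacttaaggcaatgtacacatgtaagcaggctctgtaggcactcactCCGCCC
The DDB2 stretch holds 3 CCAAT boxes and no GC box, while those of XPC and ERCC6 hold 1 GC box each and no CCAAT box. This DDB2 stretch belongs to the start further upstream. The canonical transcript, whose window holds the p53 element, starts at chr11:47214974. A match is a description of these letters and not a measured binding site.

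DDB2 and XPC, both damage sensors, differed in how many lines they moved in. DDB2 rose in 9 of 10 lines, by up to 3.8-fold, while XPC rose in 4, more than 2-fold in MOLM13 and OCIAML3, and fell in NOMO1. ERCC6 rose in 8 of 10 lines, by less than 2-fold in each. DDB1, the partner of DDB2, and the helicase ERCC2 fell in 6 and in 5 lines. The remaining 5 members passed in at most 4 lines each. Of 10588 genes tested in all 10 lines, 3.74% passed upwards in at least 9 lines and 6.63% in at least 8. Downwards, 19.6% passed in at least 6 lines and 26.4% in at least 5, so falls like those of DDB1 and ERCC2 were common. The share that passed upwards in at least 4 lines was not counted.

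DDB2 (chr11:47214465-47239217, plus strand) encodes the subunit of the UV-damaged DNA-binding complex that touches the lesion. In KASUMI1 its level was 18.8, 18.5 and 19.6 CPM in the untreated and 66.6, 77.7 and 72.2 CPM in the etoposide libraries, a log2 fold change of 1.93 (standard error, SE, 0.093; adjusted p = 4.75e-07). In OCIAML3 it was 62.8, 64.5 and 65.9 CPM against 193, 196 and 202 CPM, a log2 fold change of 1.61 (SE 0.061, adjusted p = 9.04e-07). In F36P it was 11.7, 13.6 and 12.3 CPM against 33.7, 34.1 and 25.1 CPM, a log2 fold change of 1.3 (SE 0.155, adjusted p = 6.16e-05). These were the 3 lines in which DDB2 more than doubled, and no etoposide library overlapped the untreated ones. A fold change above 2 upwards was called for 14.6% of the genes tested in KASUMI1, 7.18% in OCIAML3 and 24.3% in F36P.

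The next group of lines came close to doubling. MOLM13 went from 82.5, 80.7 and 76.9 CPM to 143, 160 and 163 CPM, a log2 fold change of 0.96 (SE 0.074, adjusted p = 5.16e-06). NB4 went from 19.7, 26.5 and 29.2 CPM to 44.98, 49.8 and 50.3 CPM, a log2 fold change of 0.95 (SE 0.128, adjusted p = 1.40e-05). MONOMAC6 went from 31.1, 32.7 and 33.4 CPM to 54.6, 61.7 and 59.7 CPM, a log2 fold change of 0.86 (SE 0.066, adjusted p = 4.48e-07). In all 3 the groups were again apart. HL60 went from 46.0, 50.03 and 47.7 CPM to 72.4, 70.3 and 86.8 CPM, a log2 fold change of 0.67 (SE 0.104, adjusted p = 0.000374). NOMO1 went from 43.5, 50.4 and 41.8 CPM to 68.8, 70.1 and 64.3 CPM, a log2 fold change of 0.58 (SE 0.095, adjusted p = 0.000294). Both rose with no overlap.

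DDB2 moved least in MV411 and THP1. MV411 went from 125, 128 and 126 CPM, the highest untreated level, to 148, 162 and 145 CPM, a log2 fold change of 0.27 (SE 0.058, adjusted p = 0.000377). THP1 had 32.0, 34.5 and 31.5 CPM untreated and 34.4, 41.2 and 34.9 CPM with etoposide, a log2 fold change of 0.17 (SE 0.131, adjusted p = 0.334) in which the groups overlapped. In the discarded OCIAML2 set the values were 80.3, 75.9 and 79.2 CPM against 91.8, 93.7 and 100.3 CPM, apart from each other, with a log2 fold change of 0.28 and an adjusted p of 0.15 by the quasi-likelihood test but 0.00752 by edgeR's exact test and 0.0415 by DESeq2. Of 10588 genes tested in all 10 lines, 3.74% passed upwards in at least 9 lines, as DDB2 did.

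XPC (chr3:14145147-14178621, minus strand) encodes the sensor that binds the distorted helix. In OCIAML3 its level was 45.8, 43.6 and 45.5 CPM untreated and 138, 142 and 146 CPM with etoposide, a log2 fold change of 1.66 (SE 0.065, adjusted p = 9.98e-07). In MOLM13 it was 55.6, 54.7 and 49.7 CPM against 112, 118 and 118 CPM, a log2 fold change of 1.12 (SE 0.072, adjusted p = 2.03e-06). These groups were far apart, and in MOLM13, where 8.59% of the genes tested were called upwards, DDB2 narrowly missed that fold. In KASUMI1, where DDB2 rose the most, XPC went from 55.7, 50.7 and 57.3 CPM to 65.97, 71.1 and 70.0 CPM, a log2 fold change of 0.34 (SE 0.084, adjusted p = 0.00631). MV411 went from 112, 111 and 114 CPM to 124, 132 and 118 CPM, a log2 fold change of 0.14 (SE 0.058, adjusted p = 0.0357). The MV411 difference was lost with DESeq2, without a filter on low counts and without several single libraries, and that of KASUMI1 without the second untreated library (adjusted p = 0.0545).

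In none of the other 6 lines did XPC pass upwards. The share of all genes that passed upwards in at least 4 lines was not counted. NOMO1 fell from 48.1, 51.6 and 53.5 CPM to 39.7, 35.8 and 38.8 CPM, a log2 fold change of -0.42 (SE 0.09, adjusted p = 0.00184). THP1 had 30.9, 26.3 and 29.2 CPM untreated and 24.99, 24.2 and 25.9 CPM with etoposide, a log2 fold change of -0.20 (adjusted p = 0.252). HL60 had 47.6, 45.2 and 47.8 CPM and then 43.4, 42.3 and 43.6 CPM, a log2 fold change of -0.12 (adjusted p = 0.338). Both sets were lower with no overlap but did not pass. NB4 had 42.6, 39.7 and 40.2 CPM and then 40.5, 39.6 and 37.1 CPM, a log2 fold change of -0.06. MONOMAC6 had 32.8, 39.0 and 37.3 CPM and then 35.6, 35.0 and 34.0 CPM, a log2 fold change of -0.06. In both, the libraries overlapped, whereas DDB2 rose clearly. F36P had 41.6, 42.7 and 43.1 CPM and then 50.2, 49.0 and 46.5 CPM, a log2 fold change of 0.19 that did not pass (adjusted p = 0.158). The OCIAML2 set had 67.9, 68.0 and 67.6 CPM and then 71.5, 78.2 and 79.3 CPM, a log2 fold change of 0.17 (adjusted p = 0.998).

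**Figure D1:**
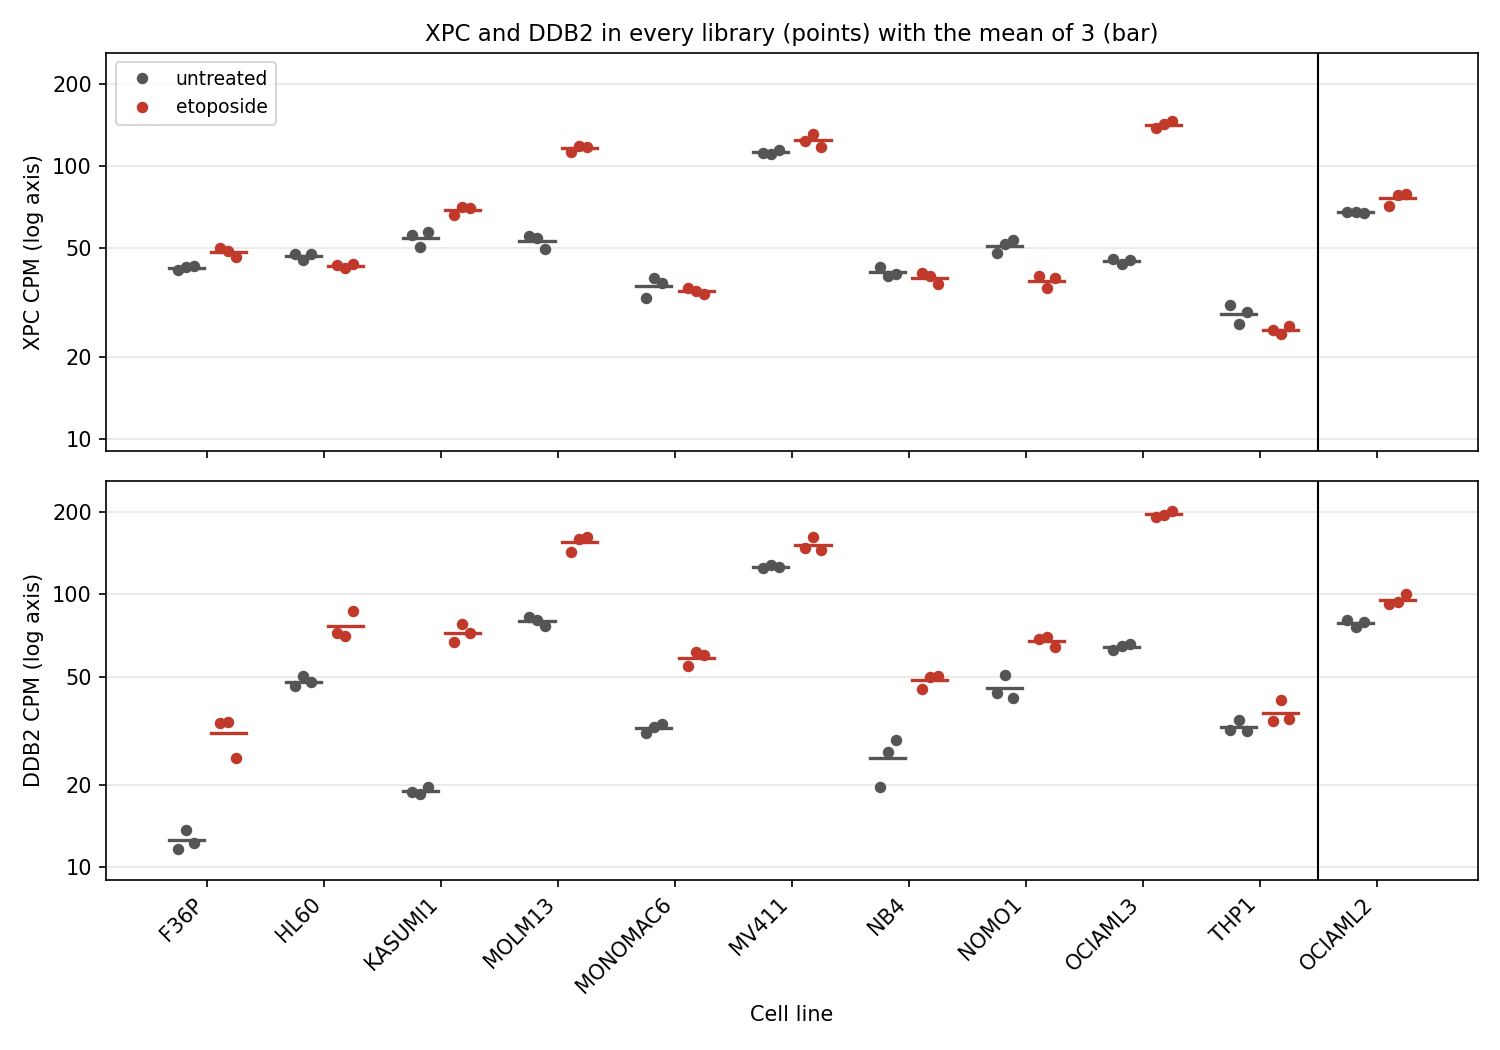
Level of XPC (top) and DDB2 (bottom) in CPM on a log axis, for each cell line, untreated in grey and etoposide in red. Points are single libraries and bars the mean of 3; OCIAML2, whose treated libraries the study discarded, stands to the right of the line. DDB2 lies higher after etoposide in every line, with overlap in THP1, whereas XPC moves far in MOLM13 and OCIAML3.

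The size of these changes differed between lines. The test of the interaction between line and treatment over 60 libraries passed for 9 of the 10 members, XPA being the exception (adjusted p = 0.106), beside 74.5% of all 19974 genes tested, so that the passing itself does not set them apart. The lowest adjusted p was that of XPC, 1.05e-24, followed by DDB2 at 1.05e-16. Set against the mean of the other 9 lines, the XPC log2 fold change was higher by 1.51 in OCIAML3 (SE 0.075, adjusted p = 3.99e-22) and by 1.00 in MOLM13 (SE 0.075, adjusted p = 1.26e-15). In NOMO1 it differed by -0.82 (SE 0.076, adjusted p = 2.59e-12). It also lay lower in THP1 at -0.50 (adjusted p = 1.53e-06), HL60 at -0.42 (adjusted p = 3.60e-05), MONOMAC6 at -0.39 (adjusted p = 0.000125) and NB4 at -0.34 (adjusted p = 0.000658). For each of these lines and NOMO1, the mean of the other 9 included the high values of OCIAML3 and MOLM13. Within MONOMAC6 and NB4 the XPC log2 fold change was itself only -0.06. The DDB2 log2 fold change was higher by 1.13 in KASUMI1 (SE 0.106, adjusted p = 1.13e-12), by 0.71 in OCIAML3 (SE 0.1, adjusted p = 2.06e-07) and by 0.44 in F36P (SE 0.111, adjusted p = 0.00128). It differed by -0.83 in THP1 (SE 0.104, adjusted p = 1.25e-08) and by -0.72 in MV411 (SE 0.1, adjusted p = 2.70e-07), and by -0.45 in NOMO1 (adjusted p = 0.000635) and -0.28 in HL60 (adjusted p = 0.0474). In MOLM13 the DDB2 difference from the other lines was 0.07 (adjusted p = 0.834), so the line whose XPC response stood out was near the mean for DDB2. This contrast passed in either direction for 16.5% of the genes in OCIAML3, 25% in MOLM13, 23.8% in NOMO1, 30% in KASUMI1, 33.5% in F36P, 25.3% in THP1, 13.2% in MV411, 17.1% in HL60, 15.9% in MONOMAC6 and 19.5% in NB4.

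Other p53 targets are given beside them. CDKN1A, the inhibitor of cyclin-dependent kinases, rose in 10 of 10 lines, with log2 fold changes from 1.86 in MV411 to 5.46 in OCIAML3. In at least 9 lines, 3.74% of the genes tested in all 10 passed upwards. MDM2, the ubiquitin ligase of p53, rose in 5 lines, by 2.59 in OCIAML3, 1.84 in MOLM13, 1.11 in MV411, 0.65 in NOMO1 and 0.61 in MONOMAC6 on the log2 scale, and it fell by 0.33 in NB4. The share of all genes that passed upwards in at least 5 lines was not counted. The pair of lines with the largest MDM2 change was also the pair in which XPC more than doubled, while in MV411 MDM2 more than doubled and XPC had a log2 fold change of 0.14.

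Among genes tested in all 10 lines, the 5 whose log2 fold changes ran most closely with those of XPC, by Pearson's r over the 10 lines, were ZNF337 (0.936), POLG2 (0.926), FDXR (0.926), SESN1 (0.924) and NUDT6 (0.918). FDXR and SESN1 are on the list of p53 targets, and their log2 fold changes ran from 0.03 and -0.04 up to 2.92 and 2.05. Those of ZNF337, POLG2 and NUDT6 ran from -0.87, -0.96 and -0.93 up to 0.67, 0.15 and 0.49. For DDB2 the 5 were HSPBAP1 (0.949), EXOC1 (0.940), SLC9A3-AS1 (0.922), an unnamed gene (ENSG00000279696, 0.918) and POLI (0.916), none of which is on that list. In that order, their log2 fold changes ran from -0.45, -0.25, -0.28, -1.52 and -1.08 up to 0.66, 0.46, 1.57, -0.36 and 0.40. The unnamed gene thus had negative log2 fold changes throughout, where those of DDB2 were positive. A high r describes the pattern over lines and not a shared direction. The r between XPC and DDB2 was 0.558. These are descriptions over 10 points taken from 10587 genes, and the points share the cell lines.

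DDB1 (chr11:61299451-61342596, minus strand) is the adaptor that joins DDB2 to the CUL4 ubiquitin ligase and serves many other receptors. It went down where DDB2 went up in 6 lines. In F36P it fell from 920, 835 and 785 CPM to 412, 421 and 456 CPM, a log2 fold change of -0.98 (SE 0.105, adjusted p = 3.33e-05). In KASUMI1 it fell from 685, 666 and 732 CPM to 409, 405 and 393 CPM, a log2 fold change of -0.79 (SE 0.072, adjusted p = 1.36e-05). In NB4 it fell from 665, 619 and 588 CPM to 406, 410 and 382 CPM, a log2 fold change of -0.64 (SE 0.081, adjusted p = 7.45e-06). In each the groups were well apart, and the treated libraries of these lines lay between 382 and 456 CPM. The log2 fold change was -0.51 in MONOMAC6, -0.42 in NOMO1 and -0.20 in MV411, the last lost when counts were scaled by library size alone (adjusted p = 0.215) and in the fit of 60 libraries (adjusted p = 0.129). It was 0.18 in OCIAML3, 0.09 in MOLM13 and 0.09 in THP1, and -0.22 in HL60, where the groups overlapped and the test was not passed. Of all genes, 19.6% passed downwards in at least 6 lines. Over the 60 libraries, the line means of DDB1 spanned 270 to 831 CPM untreated (3.08-fold) and 295 to 503 CPM with etoposide (1.7-fold). For DDB2 those spans were 12.3 to 121 CPM (9.87-fold) and 31.2 to 198 CPM (6.33-fold).

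ERCC6 (chr10:49454168-49539538, minus strand), the ATPase of transcription-coupled repair, rose in 8 of 10 lines. In NOMO1 it went from 24.6, 21.3 and 21.3 CPM to 36.03, 41.2 and 40.2 CPM, a log2 fold change of 0.80 (SE 0.102, adjusted p = 4.44e-05). In KASUMI1 it went from 32.1, 33.1 and 25.7 CPM to 60.2, 40.7 and 54.9 CPM, a log2 fold change of 0.78 (SE 0.154, adjusted p = 0.0017). In MV411 it went from 18.2, 14.7 and 14.0 CPM to 27.1, 24.6 and 25.7 CPM, a log2 fold change of 0.73 (SE 0.098, adjusted p = 1.23e-06). All 3 groups were apart, with 1 KASUMI1 etoposide library well under the other two. F36P (0.59), OCIAML3 (0.52), MOLM13 (0.49), MONOMAC6 (0.49) and NB4 (0.39) followed on the log2 scale, again without overlap. The log2 fold change was 0.26 in THP1 (adjusted p = 0.206) and 0.05 in HL60 (adjusted p = 0.773), and HL60 lay below the mean of the other 9 lines by a difference of -0.51 (SE 0.133, adjusted p = 0.0043). Of all genes, 6.63% passed upwards in at least 8 lines. In OCIAML2 it was -0.02.

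ERCC2 (chr19:45349837-45370918, minus strand) encodes the XPD helicase of TFIIH. In KASUMI1 it fell from 102, 110 and 111 CPM to 46.0, 54.1 and 49.0 CPM, a log2 fold change of -1.11 (SE 0.089, adjusted p = 5.80e-06). This was the 1 call downwards beyond a 2-fold change among the members, a call made for 6.52% of the genes in that line. In MONOMAC6 it fell from 81.8, 90.2 and 90.8 CPM to 50.7, 54.9 and 52.7 CPM, a log2 fold change of -0.73 (SE 0.06, adjusted p = 7.92e-07). In F36P (log2 fold change -0.58) and NOMO1 (-0.41) it also fell without overlap, the F36P difference being lost when counts were scaled by library size alone (adjusted p = 0.0657). In MV411 the groups overlapped at a log2 fold change of -0.16 (adjusted p = 0.0489), which several alternatives lost. In NB4, the replicate numbers were taken to pair the libraries because their deviations correlated, which the labels do not state. There the ERCC2 log2 fold change of -0.23 passed with this pairing (adjusted p = 0.0126) and not without it (adjusted p = 0.0631). In THP1 its log2 fold change of -0.38 had no overlap and missed the threshold (adjusted p = 0.0509), but passed by edgeR's exact test (adjusted p = 0.0386) and DESeq2 (adjusted p = 0.0488). MOLM13 had 0.17 and OCIAML3 0.00, both higher than the mean of the other 9 lines, by 0.64 (SE 0.111, adjusted p = 8.70e-06) and 0.36 (SE 0.112, adjusted p = 0.0177). Of all genes, 26.4% passed downwards in at least 5 lines. ERCC3 (chr2:127257290-127294166, minus strand), the XPB translocase of the same complex, had log2 fold changes from -0.24 in F36P to 0.25 in HL60. It passed upwards in HL60 alone among the 10 lines (adjusted p = 0.0477), and that was lost when 1 library was left out in 5 of 6 cases.

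XPA (chr9:97674909-97697340, minus strand), which binds the opened DNA, had the lowest levels in F36P and passed upwards in 2 lines. In KASUMI1 it went from 15.03, 15.2 and 13.9 CPM to 18.1, 22.2 and 21.9 CPM, a log2 fold change of 0.50 (adjusted p = 0.00351). In NOMO1 the log2 fold change was 0.35 (adjusted p = 0.0202), which was lost in the fit of 60 libraries (adjusted p = 0.057) and without any 1 of 3 single libraries (adjusted p from 0.0515 to 0.0927). The other lines ran from -0.14 in OCIAML3 to 0.29 in HL60 without passing.

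The nuclease genes moved in both directions. ERCC1 (chr19:45407334-45478828, minus strand), the partner of ERCC4, fell in HL60 from 86.0, 88.5 and 89.0 CPM to 61.1, 66.2 and 66.8 CPM, a log2 fold change of -0.44 (adjusted p = 0.00202). It fell in KASUMI1 by 0.42 on the log2 scale (adjusted p = 0.0045), and the log2 fold change of -0.21 in NOMO1 (adjusted p = 0.0481) was lost under 9 of 14 alternatives. ERCC4 (chr16:13920138-13952348, plus strand), the XPF nuclease, had log2 fold changes of -0.40 in KASUMI1 (adjusted p = 0.0295), 0.18 in MONOMAC6 (adjusted p = 0.047) and 0.30 in OCIAML3 (adjusted p = 0.0114), each lost under several alternatives. ERCC1 and ERCC4, whose proteins work as a pair, passed together in KASUMI1 among the 10 lines. ERCC5 (chr13:102845831-102875995, plus strand), the XPG nuclease, rose in KASUMI1 from 19.6, 18.8 and 14.7 CPM to 24.4, 27.2 and 26.4 CPM, a log2 fold change of 0.55 (adjusted p = 0.00307). It fell in THP1 from 38.7, 42.1 and 37.7 CPM to 30.3, 22.7 and 23.1 CPM, a log2 fold change of -0.64 (adjusted p = 0.00231), and by 0.45 in MONOMAC6 and 0.42 in MV411 on the log2 scale. In NB4 its log2 fold change of 0.20 passed with the assumed pairing of the replicates (adjusted p = 0.0193) and not without it (adjusted p = 0.0639). The readthrough gene BIVM-ERCC5 has 0 reads in all 66 libraries. It shares 91.7% of the canonical ERCC5 transcript on the same strand, all but 0.324 kb. Of all annotated ERCC5 exons (11.04 kb) it shares 33%, so the part that the ERCC5 counts rest on is uncertain.

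**Figure D2:**
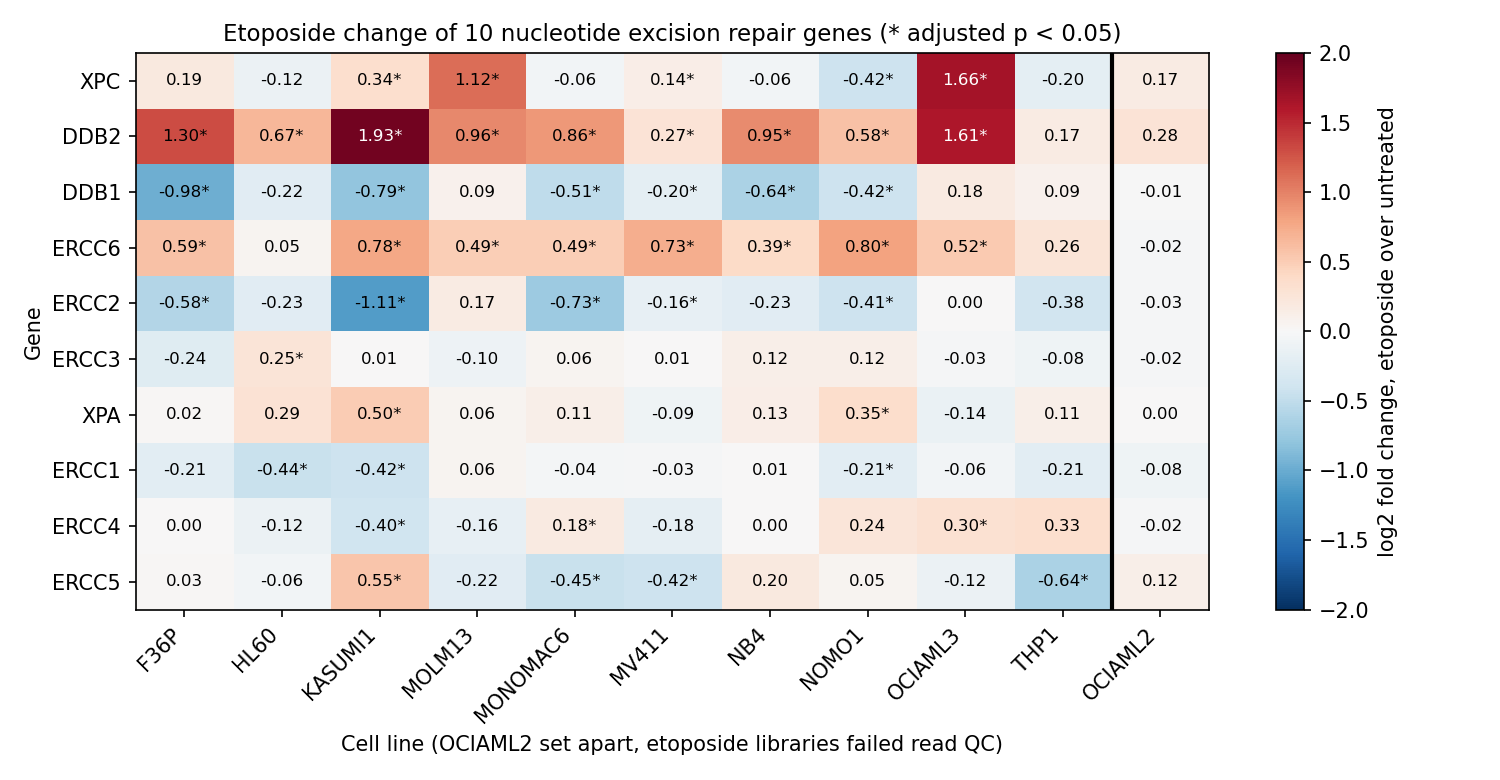
Log2 fold change of etoposide over untreated cells for the 10 genes (rows) in each cell line (columns), red for higher and blue for lower, with an asterisk where the adjusted p was under 0.05. DDB2 is above 0 in all 10 lines, ERCC6 too, and DDB1 and ERCC2 are below 0 in most; OCIAML2 stands to the right of the line.

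Counted over members and lines, 27 of 100 pairs passed upwards and 19 downwards, with 5 and 1 called beyond 2-fold. When counts were scaled by library size alone, the split was 34 upwards and 14 downwards. That scaling shifted the log2 fold changes by 0.25 in F36P, 0.21 in NB4, 0.17 in KASUMI1, 0.13 in MV411 and 0.12 in MONOMAC6, and by at most 0.10 elsewhere, and no passing pair changed its direction. Over all genes and the 10 lines, 27.7% of tests passed upwards and 24.4% downwards, so the members as a set lay near the background. The 8 members other than XPC and DDB2 passed upwards in 14 and downwards in 18 of 80 pairs.

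In KASUMI1, 5 members rose and 4 fell, next to 31.5% and 28.6% of the 14286 genes tested there. In NOMO1, 3 rose and 4 fell, next to 28.8% and 23.9%. MONOMAC6 had 3 members up and 3 down, next to 31.8% and 30.5%, and MV411 likewise 3 and 3, next to 33.5% and 30.4%. In OCIAML3, 4 members rose and none fell, next to 22.4% and 17.7%, and in MOLM13 3 rose and none fell, next to 28.1% and 28.1%, although ERCC5 there passed downwards with the replicate block (adjusted p = 0.0496). F36P had 2 up and 2 down, next to 35% and 25%. HL60 had 2 up and 1 down, next to 17.5% and 15%, and NB4 had 2 up and 1 down, next to 31% and 28.7%. With the replicate block, ERCC5 also passed upwards in NB4 (adjusted p = 0.0193) and ERCC2 downwards (adjusted p = 0.0126). In THP1 no member rose and 1 fell, next to 16.1% and 16%. The median log2 fold change of the 10 members lay between -0.09 in HL60 and 0.18 in KASUMI1, and that of all genes tested between -0.03 in THP1 and 0.09 in F36P. For the directions with no member in OCIAML3, MOLM13 and THP1, without the block there was also none at an unadjusted p under 0.05 by edgeR's quasi-likelihood test, nor by its exact test or DESeq2 after adjustment. In KASUMI1 the median without XPC and DDB2 was -0.20.

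With the cell lines as replicates, 4 members passed. DDB2 had a mean log2 fold change of 0.96 (SE 0.158, adjusted p = 0.000825) and was above 0 in 10 of 10 lines. ERCC6 had 0.54 (SE 0.084, adjusted p = 0.000609), also above 0 in 10 of 10. ERCC2 had -0.34 (SE 0.112, adjusted p = 0.0297), below 0 in 9 of 10, and DDB1 had -0.31 (SE 0.115, adjusted p = 0.0484), below 0 in 7 of 10. The DDB1 result did not pass without any 1 of 7 lines, with adjusted p up to 0.105 without KASUMI1, and that of ERCC2 did not pass without F36P, KASUMI1 or MONOMAC6 (adjusted p up to 0.0705). Without the libraries numbered 1, neither passed (adjusted p = 0.0985 for DDB1 and 0.0736 for ERCC2). XPC did not pass, at 0.28 (SE 0.182, adjusted p = 0.238), with 5 lines above and 5 below 0, nor did XPA at 0.16, ERCC1 at -0.13, ERCC5 at -0.08, ERCC4 at 0.05 and ERCC3 at 0.04. In this fit 22.6% of 16153 genes passed upwards and 16.7% downwards, and the median of all genes was 0.06 beside 0.04 for the members.

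Before treatment, levels differed between the 11 lines for all 10 members, as for 99.4% of the 18130 genes tested. DDB2 spanned the widest range among the members, 9.97-fold, from 11.8 CPM ± 0.807 (SD, n = 3) in F36P to 118 CPM ± 1.21 (SD, n = 3) in MV411. In falling order the DDB2 means were 118 CPM in MV411, 83.3 in MOLM13, 78.3 in OCIAML2, 63.9 in OCIAML3, 44.7 in HL60, 40.5 in NOMO1, 31.8 in THP1, 31.1 in MONOMAC6, 23.9 in NB4, 19.0 in KASUMI1 and 11.8 in F36P. Neighbours in that order overlapped in 4 of 10 cases, MOLM13 with OCIAML2, HL60 with NOMO1, THP1 with MONOMAC6 and NB4 with KASUMI1. The lines at the bottom of that order, F36P and KASUMI1, were among those with the largest log2 fold change, and MV411 at the top had a small one. Other lines did not follow this. OCIAML3 had a log2 fold change of 1.61 from 63.9 CPM and MOLM13 0.96 from 83.3 CPM, while THP1 had the smallest, 0.17, from 31.8 CPM. The fold change contains the untreated level, so the relation between them was not tested.

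XPC spanned 3.76-fold, from 28.0 CPM ± 2.28 (SD, n = 3) in THP1 to 105 CPM ± 1.64 (SD, n = 3) in MV411. In falling order its means were 105 CPM in MV411, 67.8 in OCIAML2, 55.5 in MOLM13, 54.7 in KASUMI1, 45.7 in NOMO1, 44.6 in OCIAML3, 43.7 in HL60, 40.1 in F36P, 38.8 in NB4, 35.0 in MONOMAC6 and 28.0 in THP1. MV411 thus held the highest untreated level of both sensors, apart from its neighbour in each. OCIAML3, where XPC rose the most, began in the middle of the order and overlapped there with NOMO1 and HL60. DDB1 spanned 3.07-fold, from 261 CPM in THP1 to 802 CPM in F36P, the line with the least DDB2. XPA spanned 3.62-fold, from 4.62 CPM in F36P to 16.7 CPM in NOMO1, and ERCC5 3.05-fold, from 17.7 CPM in KASUMI1 to 54.1 CPM in NB4. ERCC1 spanned 2.82-fold, from 35.5 CPM in NB4 to 100.4 CPM in MV411, and ERCC4 2.71-fold, from 8.82 CPM in THP1 to 23.9 CPM in OCIAML2. ERCC3 spanned 2.36-fold and was lowest in F36P at 42.3 CPM, ERCC2 spanned 2.21-fold and was lowest in NB4 at 54.5 CPM, and ERCC6 had the narrowest span, 2.08-fold, with 14.6 CPM in MV411 as its lowest. Neighbouring lines overlapped in 8 or 9 of 10 cases for XPA, ERCC4, ERCC5 and ERCC6, so the order of the lines is loose for those genes.

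Per kb of the canonical transcript, the median untreated level over lines was 106 CPM per kb for DDB1, far above the rest. ERCC3 followed at 29.5, ERCC1 at 22.4, DDB2 at 22.3, ERCC2 at 19.4, XPC at 12.2 and XPA at 8.19 CPM per kb. ERCC6 at 2.44 and ERCC4 at 1.93 CPM per kb were the lowest of the 9 genes compared. ERCC5 was left out, since the part of its transcript that can be counted is uncertain.

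**Figure D3:**
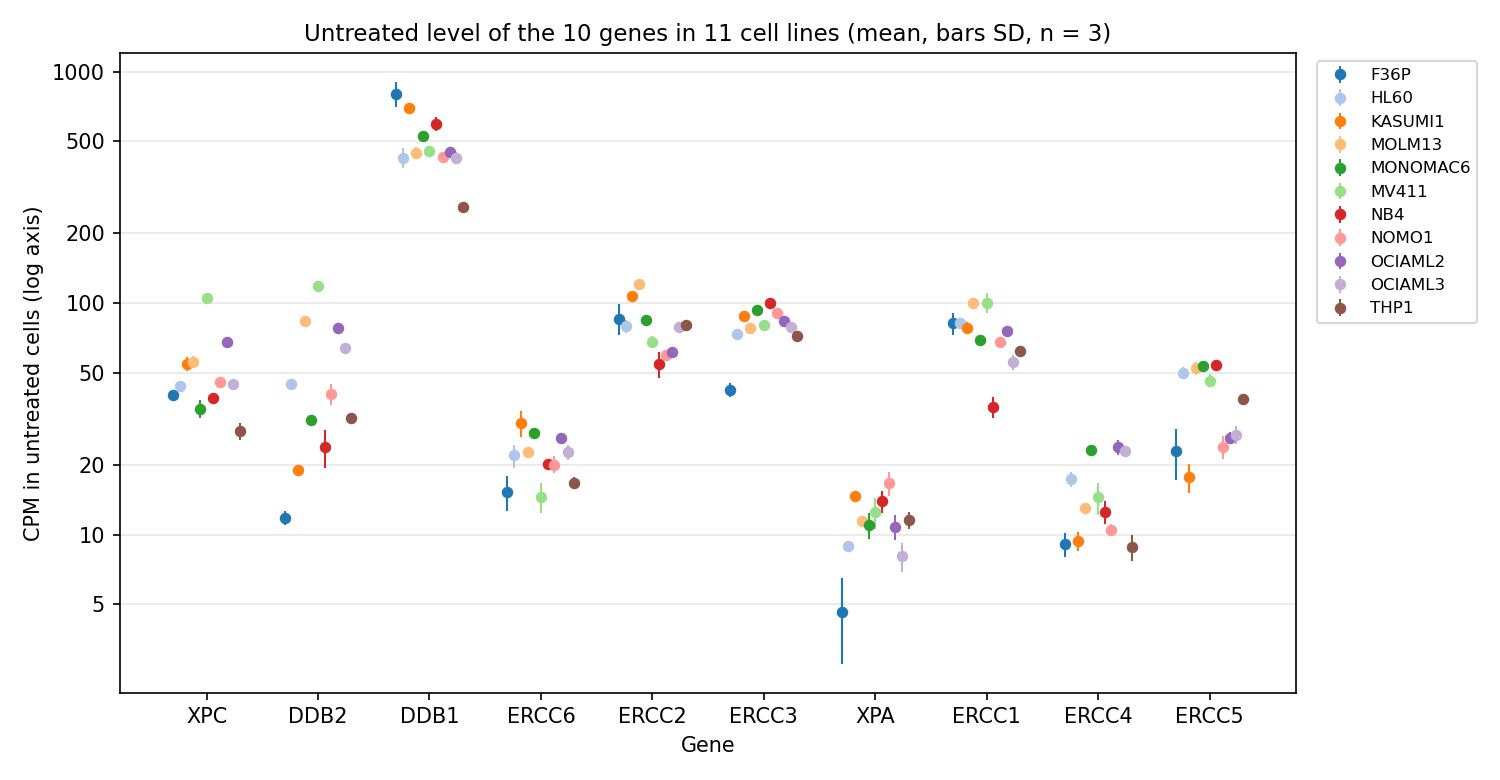
Untreated level of the 10 genes in CPM on a log axis, with 1 point per cell line as the mean of 3 libraries and bars for the SD. DDB1 lies above the other genes in every line, and DDB2 spreads over the widest range, 9.97-fold.

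The partners of the members, 41 further genes of the pathway grouped by role, were compared in the same way over 10 lines. Of 40 that could be tested, 6 passed upwards, 7 downwards and 27 did not pass, with a median log2 fold change of -0.02, next to 22.6% and 16.7% of all genes. With the sign-flip permutation over lines the same list gave 2 upwards and 8 downwards, next to 17.6% and 25.7% of the 10588 genes tested in all 10 lines. Among 6 other recognition genes, 3 passed downwards and 3 did not pass, with a median of -0.22. RAD23B, which stabilises XPC, had a mean log2 fold change of -0.61 (adjusted p = 0.000168) and fell in 9 of 10 lines, whereas CUL4B, a cullin of the DDB1 ligase, had -0.08. CUL4A, chosen after its value was seen, is the other cullin that binds DDB1 and also fell in 9 of 10 lines, with a mean log2 fold change of -0.53 (adjusted p = 0.000708). The share of all genes that passed downwards was 19.6% for at least 6 lines and was not counted for 9. Line by line, the recognition genes passed downwards in 39 and upwards in 3 of 60 pairs, next to 24.4% and 27.7% over all genes.

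Among 6 genes of transcription-coupled repair, 2 passed downwards and 4 did not pass. USP7, a deubiquitinase that works with UVSSA and also on MDM2, had a mean log2 fold change of -0.49 (adjusted p = 0.000932) and TCEA1, an elongation factor, 0.12. Of the 8 further genes counted as TFIIH, GTF2H4 was listed at 0 in all libraries and none of the remaining 7 passed by edgeR's quasi-likelihood test over lines, from CCNH at -0.21 to CDK7 at 0.11. Of these, 1 had an unadjusted p under 0.05, downwards, and none passed with the sign-flip permutation. In single lines 4 of 69 pairs (5.8%) passed upwards and 20 (29.0%) downwards, next to 27.7% and 24.4% over all genes. RPA2, a subunit of the protein that coats single-stranded DNA, passed at 0.27 (adjusted p = 0.0465) but not with the sign-flip permutation (adjusted p = 0.117), while RPA1 had -0.02. Of 18 genes of repair synthesis and ligation, 5 passed upwards and 2 downwards. POLD4, the small subunit of DNA polymerase delta, had 0.97 (SE 0.179, adjusted p = 0.00149) and was called in 5 lines, whereas LIG3, a DNA ligase, had -0.62 (SE 0.074, adjusted p = 0.000175) and fell in 10 of 10. The shares of all genes for these counts of lines were not taken. Of 18 further p53 targets 13 passed upwards and 5 did not pass, with a median of 0.74. CDKN1A, BTG2, FAS and SESN2 were among those called upwards in 5 or more lines, and DDB2 at 0.96 lay above the median of that list while XPC at 0.28 lay below it.

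**Figure D4:**
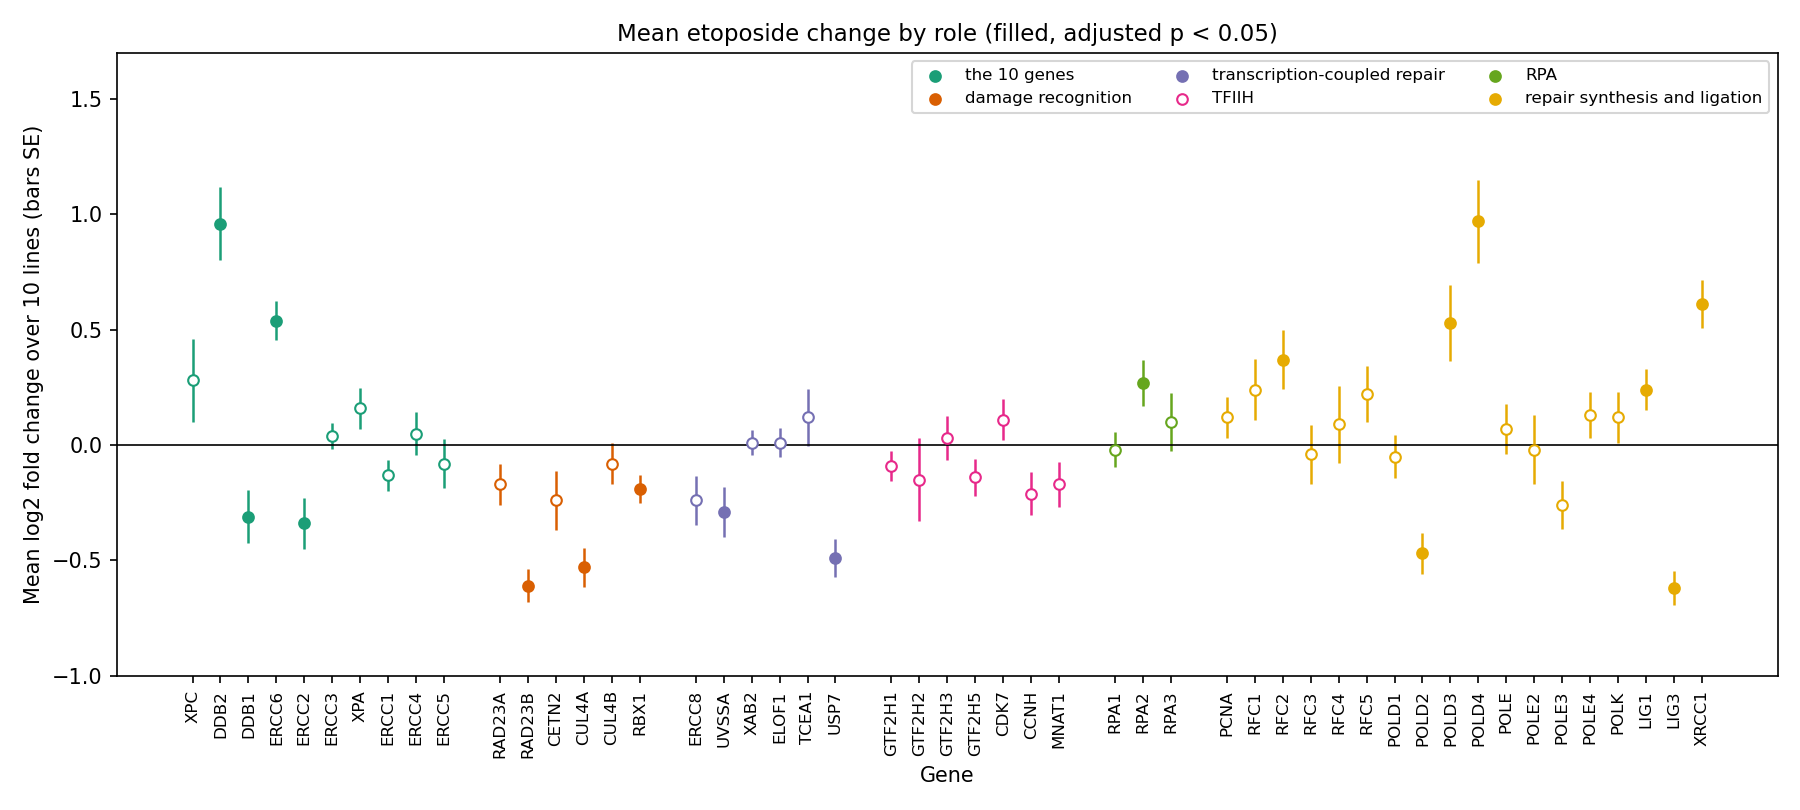
Mean log2 fold change over 10 cell lines of the 10 genes and of 40 partners grouped by role, with bars for the standard error and filled points where the adjusted p was under 0.05. DDB2 and ERCC6 lie above 0, the recognition genes RAD23B and CUL4A below, and repair synthesis genes spread from -0.62 to 0.97.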

How the data were processed

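RNA was sequenced from 66 libraries of 11 AML cell lines. Per the labels and methods, the authors checked reads with FastQC 0.11.5, mapped them with STAR 2.5.3a to GRCh38.p7 and used edgeR 3.20.1; they deposited raw counts of reads per gene, 1 file per library, without normalization. These column counts seem to keep the strand, since 463 of 707 genes that lie within an opposite-strand exon hold any reads. The nesting was taken from gencode release 44 while the authors counted on an earlier release, so this does not settle it. Of 58037 identifiers, 45 Y copies without reads were left out. Names, positions and lengths came from gencode release 44. Replicates differed beyond sampling noise (the lowest chi-square over its degrees of freedom was 2.12).

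Counts were tested here in R 4.3.3 with edgeR 4.0.16 (filterByExpr with a minimum count of 10 and total of 15, TMM, quasi-likelihood test, Benjamini-Hochberg adjustment over all genes tested), line by line, on 20 libraries summed over replicates with the line as a block, on 60 libraries for the interaction, and on 33 untreated libraries for basal levels. CPM was scaled within a line, over the 33 or over the 60 libraries, which gives a library slightly different values. DESeq2 1.42.0, the exact test, an exact sign-flip permutation over lines (smallest p 0.00195), other scalings and filters, and single libraries or lines left out were alternatives. Replicate numbers were taken to pair libraries where same-numbered deviations from the group means correlated above 0.1 in all 3 pairs, which held for NB4 (lowest 0.152) and was narrowly missed by MOLM13 (lowest 0.089). Named genes were the 10 members, in each role the partners with the highest and lowest mean change and those called in 5 or more lines, CDKN1A, MDM2, and the 5 genes most like XPC and DDB2; an item the rule also named is not reported here. The members and lists were chosen with earlier results of these data known. The fit within a line, on MV411, and the fit over 10 cell lines were tested on simulated data. They recovered 183 and 186 of 200 changes put in, with 6 false calls each. The interaction, the contrasts between lines and the basal fit were not simulated. Python 3.11.15 with matplotlib drew the figures.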

Additional observations from a re-analysis of the deposited data

Results flagged for a closer look

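The etoposide change of 9 members differed between the 10 cell lines by the test of the interaction, with adjusted p-values of 1.05e-24 for XPC, 1.05e-16 for DDB2, 2.04e-14 for DDB1, 1.83e-09 for ERCC2, 2.45e-06 for ERCC5, 0.00216 for ERCC3, 0.00401 for ERCC1, 0.00421 for ERCC6 and 0.00855 for ERCC4. The share of all genes that passed is high, at 74.5%, so these flags are common in these data. No member had a line whose log2 fold change lay beyond Dixon's critical value for 10 values. That test takes the gap between the outermost value and its neighbour, so it can miss lines that lie out together. XPC had such a pair, OCIAML3 at 1.66 and MOLM13 at 1.12.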

How the results depend on the processing

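Of 46 member and line pairs that passed, 35 passed under all 14 alternatives and 11 were lost under at least 1; no pair changed direction. The number called downwards, 1, became 2 with DESeq2, RLE normalization and no filter on low counts and 0 with library size alone, and ranged from 1 to 2 with single libraries left out. For the mean over 10 lines, DDB2 and ERCC6 passed under each alternative. DDB1, at -0.31, did not pass with RLE normalization (-0.30), library size alone (-0.23), a mean of at least 5 CPM (-0.28), OCIAML2 added (-0.27), the exact sign-flip permutation (-0.34), or without F36P (-0.24), HL60 (-0.32), KASUMI1 (-0.26), MONOMAC6 (-0.29), MV411 (-0.33), NB4 (-0.28) or NOMO1 (-0.30), or without replicate 1. ERCC2, at -0.34, did not pass with library size alone (-0.26) or without F36P (-0.32), KASUMI1 (-0.25) or MONOMAC6 (-0.29), or without replicate 1. Without 1 replicate number, DDB1 ranged from -0.33 to -0.26 and ERCC2 from -0.37 to -0.29. XPA passed with DESeq2 (0.18) and ERCC1 with the sign-flip permutation (-0.16). The causes were not tested. With the replicate block, 27 pairs passed upwards and 21 downwards; among the lines not taken as paired it lost ERCC1 in NOMO1 (adjusted p = 0.146) and ERCC4 in OCIAML3 (adjusted p = 0.0518), and it gained ERCC2 in THP1 (adjusted p = 0.0285) and ERCC5 in MOLM13 (-0.22, adjusted p = 0.0496), both downwards, where the pairing of MOLM13 narrowly missed the limit. The interaction passed for 7 to 10 members and the basal difference for 10 under the alternatives run. A difference that missed the threshold with 3 libraries a group does not show that levels were alike.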

Other observations

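Genes of the gap-filling step stood out in MOLM13, a pattern chosen after its values were seen. Of 21 genes of RPA, repair synthesis and ligation, which also serve DNA replication, 19 passed downwards and 1 upwards in MOLM13, with a median log2 fold change of -0.58. In MOLM13, 28.1% of all genes passed downwards. For 16 of the 21 genes, MOLM13 was the line with the lowest log2 fold change, among them RFC4 at -1.04, POLE2 at -1.21 and RFC3 at -1.02. In OCIAML3, the other line in which XPC more than doubled, 10 passed downwards and 2 upwards, with a median of -0.19, next to 17.7% and 22.4% of all genes. MONOMAC6 and NOMO1 showed the other direction, with 17 and 16 genes passing upwards and medians of 0.37 and 0.35, next to 31.8% and 28.8% of all genes.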
